A study of Mus musculus with 8 samples.

Results

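The 10 genes described here encode the TGF-β ligands (Tgfb1, Tgfb2, Tgfb3), the TGF-β receptors (Tgfbr1, Tgfbr2, Tgfbr3) and the latent TGF-β binding proteins, or LTBPs (Ltbp1, Ltbp2, Ltbp3, Ltbp4). They were found by gene symbol among the 22274 genes of the deposited table. RNA was sequenced from primary murine cardiac fibroblasts, the matrix-producing cells of the heart, that had all been treated with 5 ng/ml TGF-β for 24 h, a stimulus that turns fibroblasts into contractile myofibroblasts. Untreated cells were not analysed here. Before TGF-β the cells had received either the empty vector, labelled GFP (4 libraries), or a vector for overexpression of IRF7, a transcription factor of the interferon response, labelled OEIRF7 (4 libraries). The methods name adenovirus for both, with a CMV promoter and a FLAG-EGFP tag in the construct names, whereas the description deposited with the series names an adeno-associated virus. GFP and OEIRF7 below stand for the libraries so labelled. The comparison asks how the components of the TGF-β pathway differed at the RNA level between fibroblasts given IRF7 and fibroblasts given the empty vector.

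Total counts per library lay between 24888589 and 27095611 for GFP and between 24454801 and 28658826 for OEIRF7. The labels do not say whether the 4 libraries of a group came from separate cultures or mice, so the p-values measure only the spread between these libraries. The legend to this experiment gives fewer biological replicates than there are libraries per group, without saying which libraries these were, and all were used. Mouse Irf7 was lower in the libraries labelled OEIRF7, at 14.5 to 16.4 CPM (counts scaled to the size of the library), than in the libraries labelled GFP, at 92.0 to 147 CPM (log2 fold change -2.96, SE 0.121, adjusted p = 7.7e-11, edgeR quasi-likelihood test). The IRF7 adenovirus of the reagent list carries the human gene, whose RNA is no row of this table of mouse genes. With that virus the row for mouse Irf7 does not check the label. The IRF7 adeno-associated virus of the same list carries mouse Irf7, which this row would count. With that virus the label would call for higher counts in OEIRF7, and they were lower. Which virus was used cannot be told apart here, and every direction below rests on the labels. All 12 fibroblast markers were tested, and their summed level was 15900 to 16190 CPM in GFP and 14910 to 15960 CPM in OEIRF7 (2 higher, 6 lower, with Tcf21 at a log2 fold change of -1.33), where 29% of all tested genes were higher and 29.9% lower. Of 8 cardiomyocyte markers only Tnnt2 passed the filter on low counts, and Myh6 had at most 1 count in a library. The summed macrophage markers were 273 to 326 CPM in GFP and 330.4 to 373 CPM in OEIRF7 (3 of 8 higher, 1 lower), and the summed epicardial markers 140.0 to 154 and 110.2 to 115 CPM (2 of 6 higher, 3 lower). Endothelial markers summed to 228 to 239 and 234 to 262 CPM (3 of 8 higher, 1 lower). Mural cell markers summed to 124 to 137 and 108 to 132 CPM, but of the 7 tested 3 were higher and 3 lower, all past the fold limits given below, such as Cspg4 (22.4 to 63.3 CPM) and Notch3 (41.4 to 13.6 CPM). Summed CPM, here and below, were scaled to total counts alone, and the narrow gap of the macrophage sums was not checked under other scaling. No marker of these lists was at 0 in every library, and the part of the markers in the results below was not tested. In such bulk RNA, fewer cells of a type and less RNA per cell cannot be told apart.

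TGF-β is secreted in a latent form. Each ligand is made as a precursor that a furin-type protease cuts into the mature growth factor and a propeptide, the latency associated peptide, which stay bound to each other. In most cells the propeptide is also linked to an LTBP, which anchors the complex to fibronectin and fibrillin fibres of the matrix until integrins, proteases or thrombospondin release the ligand. Free ligand binds the type II receptor, TGFBR2, which phosphorylates the type I receptor, TGFBR1, and this kinase in turn phosphorylates SMAD2 and SMAD3. TGFBR3, or betaglycan, is a co-receptor without kinase activity that presents ligands, above all TGF-β2. In the heart this pathway is a well known driver of fibroblast activation and scar formation.

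The regions upstream of 4 of the genes are shown because the ligand genes Tgfb1 and Tgfb2, and likewise the receptor genes Tgfbr1 and Tgfbr2, differed in opposite directions between the groups. Each is the 250 bases before an annotated start, for Tgfbr1 the first of its starts, in the RefSeq table (assembly GRCm38.p6), 5′ to 3′ on the strand of the gene. Capitals mark every match, on either strand, to 8 short motifs, which are an AP-1 site (TGANTCA), a cyclic AMP response element (TGACGTCA), the SMAD elements CAGACA and, as a palindrome, GTCTAGAC, an interferon regulatory factor element (AANNGAAA), a GC-rich box bound by Sp1 (GGGCGG, called GC box below), an E-box (CACGTG) and a TATA box (TATAAA).
Tgfb1, chr7:25686752-25687001, plus strand: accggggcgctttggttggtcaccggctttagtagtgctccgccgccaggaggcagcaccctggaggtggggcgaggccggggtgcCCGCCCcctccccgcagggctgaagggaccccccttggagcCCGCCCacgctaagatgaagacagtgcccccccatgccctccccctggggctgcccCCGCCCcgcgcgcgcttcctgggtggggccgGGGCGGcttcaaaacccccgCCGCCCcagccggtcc
Tgfb2, chr1:186705990-186706239, minus strand: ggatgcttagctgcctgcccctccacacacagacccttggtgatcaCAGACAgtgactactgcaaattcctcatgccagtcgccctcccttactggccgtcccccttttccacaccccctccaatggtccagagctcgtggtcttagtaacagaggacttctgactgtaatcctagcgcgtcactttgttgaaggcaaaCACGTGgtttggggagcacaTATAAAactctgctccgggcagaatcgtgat
Tgfbr1, chr4:47352972-47353221, plus strand: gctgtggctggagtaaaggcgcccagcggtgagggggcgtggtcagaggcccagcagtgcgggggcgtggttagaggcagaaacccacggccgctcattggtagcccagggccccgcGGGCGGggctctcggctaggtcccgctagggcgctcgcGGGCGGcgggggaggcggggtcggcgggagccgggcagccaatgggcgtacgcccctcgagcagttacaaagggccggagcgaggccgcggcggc
Tgfbr2, chr9:116175364-116175613, minus strand: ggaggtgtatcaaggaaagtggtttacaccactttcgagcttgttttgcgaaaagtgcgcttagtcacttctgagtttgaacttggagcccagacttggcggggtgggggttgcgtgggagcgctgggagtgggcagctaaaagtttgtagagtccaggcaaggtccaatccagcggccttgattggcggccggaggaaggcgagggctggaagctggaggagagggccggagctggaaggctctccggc
The 2 ligand regions differed in composition. The Tgfb1 region was 75.2% G and C, with 21 CpG dinucleotides and 5 GC boxes, the nearest beginning 16 bases before the start, and no TATA box. The Tgfb2 region was 53.6% G and C, with 8 CpG, and held a TATA box 31 bases, an E-box 51 bases and a CAGACA element 204 bases before the start. The median over the 32851 regions of the table was 52.4% G and C, and 32.7% of these regions held a GC box, 12.4% a TATA box, 6.02% an E-box and 17.1% a CAGACA element. The Tgfbr1 region shown was 74.8% G and C, with 29 CpG and 2 GC boxes, whereas the region before its other start (chr4:47385966-47386215) was 52.8% G and C, with 3 CpG, a CAGACA element and no GC box. The Tgfbr2 region (58.4%, 12 CpG) held no match to any of the 8 motifs. Of the other genes, Ltbp1 held a TGACGTCA element 73 bases before its first start, a motif held by 1.55% of all regions. Ltbp4, which did not pass the test below, had regions of 64.4%, 79.2% and 79.2% G and C, with 3, 5 and 7 GC boxes. The region of Ltbp3, called higher below, was 47.2% G and C and held no match. A link between composition and direction was not tested. The table had entries for 8 of the 10 genes, with 12 starts in all. It had none for Tgfb3 or Tgfbr3, so of the ligands that fell only the Tgfb2 region could be examined. The AP-1, GTCTAGAC and AANNGAAA motifs, found in 6.75%, 0.167% and 21.3% of all regions, had no match among these 12, which says only that these letters are not in the windows.

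All 10 genes passed the filter on low counts, with between 429 counts (Tgfbr3, GFP replicate 2) and 8466 counts (Ltbp2, OEIRF7 replicate 2) in a library. With edgeR's quasi-likelihood test, 6 of them were higher in OEIRF7 and 3 were lower at an adjusted p under 0.05, and Ltbp4 did not pass. The same test called 58.9% of the 13533 tested genes, with 29% of the tested genes higher and 29.9% lower, so a call by itself was common in this comparison. At the fold limits of the methods, a fold over 1.5 or under 0.66 with p under 0.05, 2 genes were higher (Tgfb1 and Tgfbr3) and 2 were lower (Tgfb2 and Tgfb3), where 9.47% of all tested genes passed upward and 9.56% downward. In 9 of the 10 genes the CPM of the 2 groups did not overlap, which was so in 53.8% of the tested genes. These shares cover genes of all levels, and none was taken over genes of a like level. By mean CPM, 49.1% of tested genes exceeded Tgfbr3, 27% exceeded Ltbp4, and fewer exceeded each of the others. By the size of the log2 fold change, 3.37% of tested genes exceeded Tgfb2 and 4.86% exceeded Tgfb1, whereas 49.5% exceeded Ltbp2 and 66.4% exceeded Ltbp3.

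**Figure D1:**
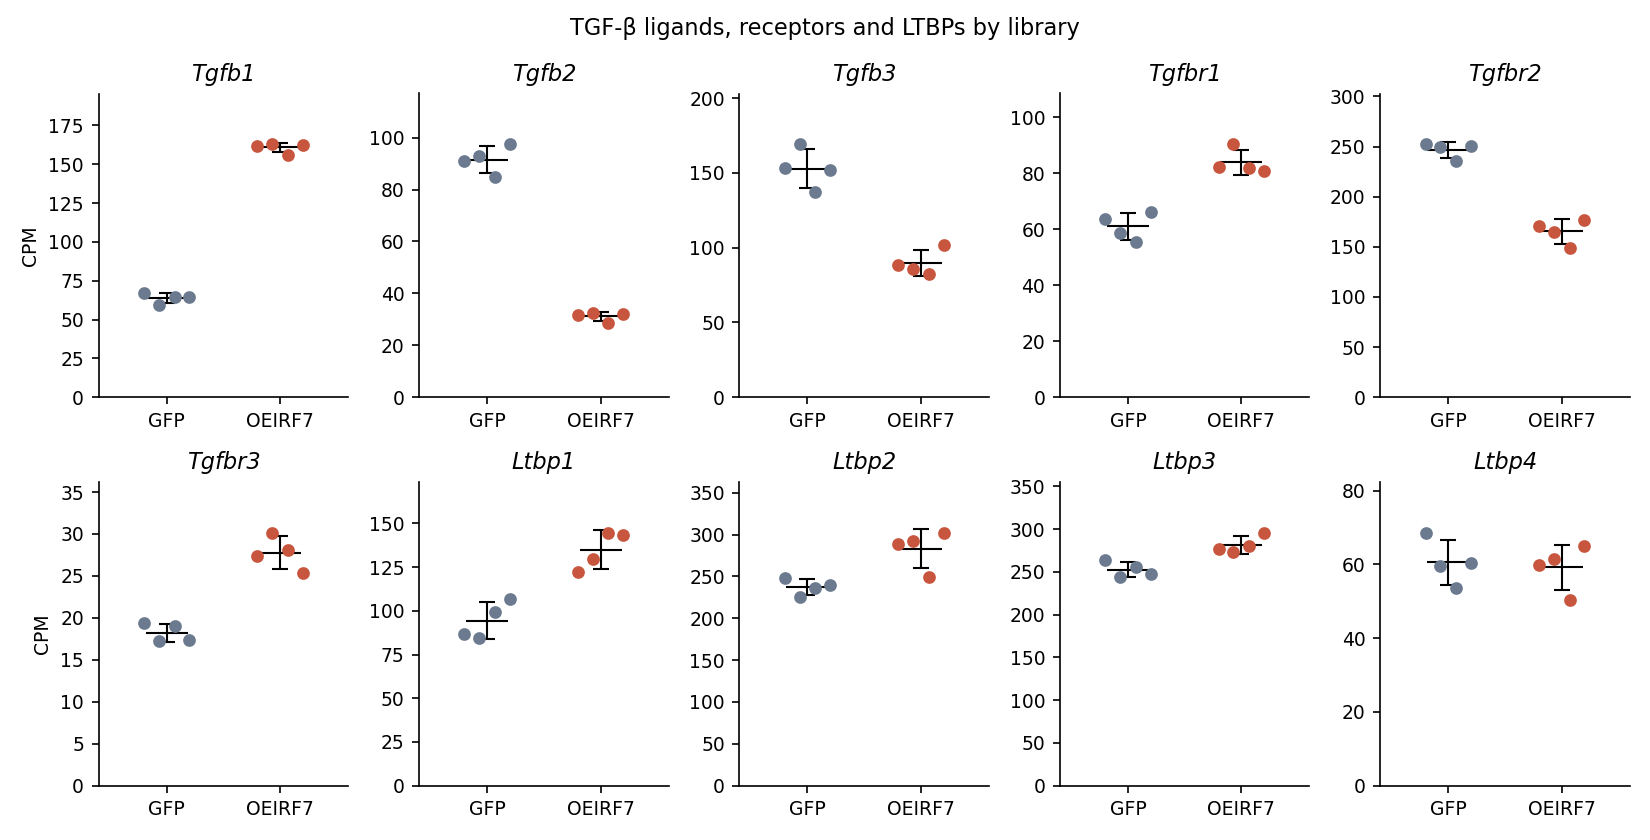
Each panel plots the CPM of 1 gene in the 4 GFP and the 4 OEIRF7 libraries (points, offset sideways by replicate), with the group mean and SD as bars; every axis starts at 0 and has its own scale. Tgfb1 rises from a mean of 63.9 to 161 CPM and Tgfb2 falls from 91.5 to 31.2 CPM, while the Ltbp4 points of both groups cover the same range.

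The 3 ligands did not move together: Tgfb1 rose and Tgfb2 and Tgfb3 fell. Tgfb1 (ENSMUSG00000002603, chr7:25687002-25705077, plus strand, GRCm38 as for all genes below) encodes the isoform most often linked to fibrosis and inflammation. It was at 67.3, 59.2, 64.6 and 64.6 CPM in GFP replicates 1 to 4 and at 162, 163, 156 and 162 CPM in OEIRF7 replicates 1 to 4. The OEIRF7 libraries lay close to each other, and the lowest of them was 89.0 CPM above the highest GFP library. The mean went from 63.9 ± 3.40 to 161 ± 3.07 CPM (SD, n = 4 each), a log2 fold change of 1.33 (SE 0.0408, adjusted p = 6.6e-12), or 2.51-fold. It was the only ligand that was higher in OEIRF7.

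Tgfb2 (ENSMUSG00000039239, chr1:186622792-186705989, minus strand) encodes the isoform that depends most on betaglycan for binding to its receptor and that is needed for heart development. Its level was 90.9, 93.1, 84.7 and 97.5 CPM in the GFP libraries and 31.8, 32.3, 28.6 and 32.1 CPM in the OEIRF7 libraries. The groups lay 52.4 CPM apart, a gap wider than the highest OEIRF7 level. The means were 91.5 ± 5.33 and 31.2 ± 1.77 CPM, a log2 fold change of -1.55 (SE 0.0524, adjusted p = 1.3e-11), so that GFP exceeded OEIRF7 by 2.93-fold. No other of the 10 genes differed by as much.

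Tgfb3 (ENSMUSG00000021253, chr12:86056745-86079041, minus strand) encodes the third isoform, which is best known from palate fusion and wound repair. It had 153, 169, 137 and 152 CPM in GFP and 88.3, 85.6, 82.5 and 102 CPM in OEIRF7. Its spread within a group was wider than that of the other ligands, but the lowest GFP library was still 35.2 CPM above the highest OEIRF7 library. The log2 fold change was -0.77 (SE 0.0671, adjusted p = 1.7e-07), a 1.71-fold excess in GFP. Tgfb3 overlaps Ttll5, a tubulin glutamylase gene on the opposite strand, over 5149 bases, and the strand setting of the counting is not stated. Ttll5 itself was at 33.7 to 40.3 CPM in GFP and 31.2 to 36.4 CPM in OEIRF7 (log2 fold change -0.13, adjusted p = 0.075).

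Measured per gene length, as FPKM (fragments normalised for gene length and library size), the ligands also changed places. In GFP, Tgfb3 was the most abundant ligand RNA (44.7 ± 3.85 FPKM), followed by Tgfb1 (29.5 ± 1.57) and Tgfb2 (18.9 ± 1.15), and the ranges of the 3 did not overlap. In OEIRF7 the order was Tgfb1 (75.3 ± 1.82 FPKM), Tgfb3 (26.7 ± 2.59) and Tgfb2 (6.79 ± 0.394), again without overlap. As a share of the summed ligand FPKM of a library, Tgfb1 was 31.7% ± 2.58 in GFP and 69.3% ± 1.62 in OEIRF7, Tgfb2 was 20.3% ± 0.740 and 6.23% ± 0.183, and Tgfb3 was 48.0% ± 2.44 and 24.5% ± 1.62. For each of these shares the exact two-sided permutation test gave p = 0.029, the smallest that 4 against 4 libraries can give. For the share of Tgfb1 this p is no further test. It was fixed by the single genes, as Tgfb1 rose and Tgfb2 and Tgfb3 fell without overlap. The summed ligand FPKM was 93.1 ± 3.7 in GFP and 109 ± 3.998 in OEIRF7 (exact permutation p = 0.029), and the ranges of 87.8 to 96.4 and 103 to 113 did not overlap. The rise of this sum holds only per gene length: the summed ligand CPM was 284 to 319 in GFP and 268 to 299 in OEIRF7, with overlap.

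**Figure D2:**
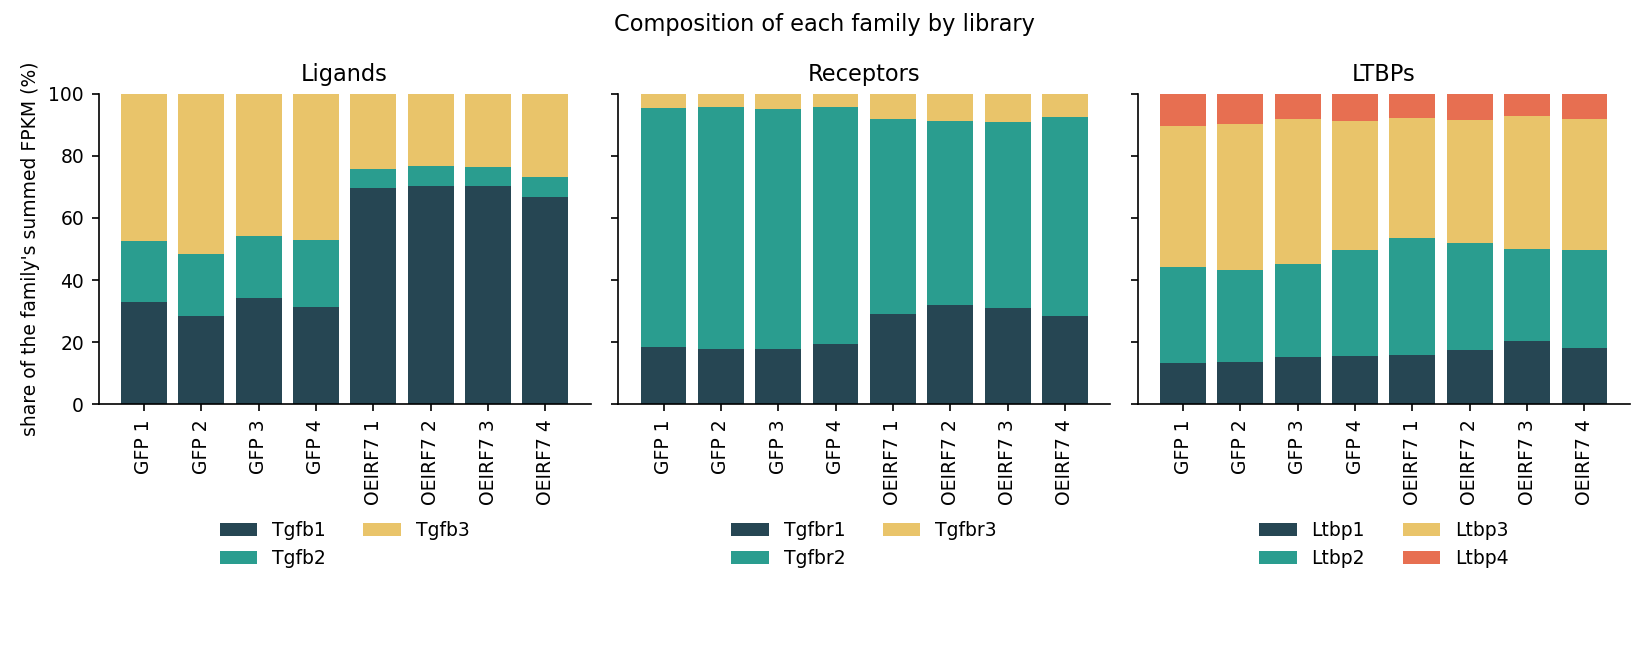
Stacked bars show, for each library (x axis), the share in percent of each gene in the summed FPKM of its family, from left to right the ligands, the receptors and the LTBPs. Tgfb1 takes 28.3% to 34.4% of the ligand sum in the GFP libraries and 66.9% to 70.3% in the OEIRF7 libraries, and Tgfbr1 takes 17.9% to 19.4% and 28.4% to 31.9% of the receptor sum.

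Among the receptors, both signalling kinases changed, in opposite directions. Tgfbr2 (ENSMUSG00000032440, chr9:116084293-116175360, minus strand), the type II receptor that binds ligand first, fell, and Tgfbr1 (ENSMUSG00000007613, chr4:47353222-47414931, plus strand), the type I receptor also known as ALK5, rose. Tgfbr1 was at 63.8, 58.7, 55.5 and 66.0 CPM in GFP and at 82.2, 90.4, 81.8 and 80.9 CPM in OEIRF7. The groups were separated by 14.9 CPM, and the log2 fold change was 0.46 (SE 0.0547, adjusted p = 4.5e-06), or 1.37-fold. Tgfbr2 was at 252, 249.7, 235 and 250.2 CPM in GFP and at 171, 165, 149 and 177 CPM in OEIRF7. All 4 OEIRF7 libraries were below all GFP libraries, with a log2 fold change of -0.58 (SE 0.0478, adjusted p = 9.6e-08), or 0.669-fold. Both receptors stayed inside the fold limits of the methods, Tgfbr2 only just.

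Tgfbr3 (ENSMUSG00000029287, chr5:107106570-107289629, minus strand), the betaglycan co-receptor, was the least abundant of the 10 genes. It had 19.3, 17.2, 19.0 and 17.3 CPM in GFP and 27.4, 30.2, 28.1 and 25.4 CPM in OEIRF7. The groups lay 6.05 CPM apart. The log2 fold change was 0.61 (SE 0.0661, adjusted p = 1.7e-06), or 1.52-fold, just past the limit of 1.5.

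The receptor make-up shifted accordingly, although Tgfbr2 kept the first place in every library. Per gene length Tgfbr2 was at 48.8 ± 1.21 FPKM in GFP and 33.7 ± 2.50 FPKM in OEIRF7, Tgfbr1 at 11.7 ± 0.737 and 16.5 ± 1.12 FPKM, and Tgfbr3 at 2.96 ± 0.183 and 4.61 ± 0.332 FPKM. The share of Tgfbr2 in the receptor sum was 76.9% ± 0.608 in GFP and 61.5% ± 2.36 in OEIRF7, that of Tgfbr1 18.5% ± 0.720 and 30.1% ± 1.69, and that of Tgfbr3 4.67% ± 0.327 and 8.42% ± 0.742 (exact permutation p = 0.029 for each). For the share of Tgfbr2 this p was fixed by the single genes, as Tgfbr2 fell and Tgfbr1 and Tgfbr3 rose without overlap. The summed receptor FPKM was lower in OEIRF7, at 54.8 ± 2.81 against 63.5 ± 1.83, with ranges of 50.9 to 56.9 and 61.2 to 65.3 (exact permutation p = 0.029). The summed receptor CPM was lower in OEIRF7 too, at 259 to 289 against 307 to 332.

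The LTBPs moved less than the ligands: 3 of 4 were higher in OEIRF7, none past 1.5-fold. Ltbp1 (ENSMUSG00000001870, chr17:75005568-75392512, plus strand) encodes a carrier that binds the propeptides of all 3 ligands. Its level was 86.8, 84.4, 99.3 and 107 CPM in GFP and 122, 129.7, 145 and 144 CPM in OEIRF7, without overlap. The log2 fold change was 0.52 (SE 0.0715, adjusted p = 2e-05), or 1.43-fold, larger than for any other LTBP.

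Ltbp2 (ENSMUSG00000002020, chr12:84783212-84876532, minus strand) encodes the one LTBP that does not bind latent TGF-β and is known as a component of elastic microfibrils. It was at 248, 225, 236 and 239 CPM in GFP and at 289, 292, 249 and 302 CPM in OEIRF7. OEIRF7 replicate 3 stood only 0.988 CPM above the highest GFP library, and the other 3 OEIRF7 libraries were well apart. The log2 fold change was 0.26 (SE 0.0523, adjusted p = 0.00068).

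Ltbp3 (ENSMUSG00000024940, chr19:5740904-5758532, plus strand) encodes another carrier of latent TGF-β, needed for the growth of bones and teeth. It had 264, 244, 256 and 247 CPM in GFP and 277, 273, 280.2 and 296 CPM in OEIRF7, with a gap of 8.92 CPM. The log2 fold change was 0.155 (SE 0.0365, adjusted p = 0.002), or 1.11-fold. On FPKM this call was lost: the means were 56.5 ± 1.57 and 60.1 ± 3.56 FPKM, and limma on log2(FPKM + 1) gave a log2 fold change of 0.088 (adjusted p = 0.11).

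Ltbp4 (ENSMUSG00000040488, chr7:27305136-27337692, minus strand), which encodes an LTBP that binds TGF-β1 weakly and helps to assemble elastic fibres, was the only one of the 10 genes that did not pass the test. Its level was 68.6, 59.6, 53.5 and 60.4 CPM in GFP and 59.8, 61.5, 50.4 and 64.8 CPM in OEIRF7, so the 2 ranges largely coincided. The log2 fold change was -0.03 (adjusted p = 0.73, exact permutation p = 0.8). Its approximate 95% interval, from the SE with a normal distribution and so somewhat too narrow, ran from -0.19 to 0.12. Its sign turned when GFP replicate 1 or OEIRF7 replicate 3 was left out (0.03 and 0.035).

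Per gene length, Ltbp3 was the most abundant LTBP RNA in both groups, followed by Ltbp2 (39.1 ± 3.99 FPKM in GFP and 49.3 ± 6.50 FPKM in OEIRF7), Ltbp1 (18.1 ± 1.92 and 26.5 ± 2.09 FPKM) and Ltbp4 (11.7 ± 1.19 and 11.7 ± 1.27 FPKM). Unlike the ligands, the LTBPs kept their order by mean FPKM. In CPM, Ltbp2 and Ltbp3 were about level in OEIRF7, at means of 283 and 281. Only the share of Ltbp1 in the LTBP sum separated the groups, at 14.4% ± 1.18 in GFP and 18.02% ± 1.85 in OEIRF7 (exact permutation p = 0.029). The shares of Ltbp2 (31.1% and 33.3%, p = 0.229), Ltbp3 (45.1% and 40.8%, p = 0.086) and Ltbp4 (9.35% and 7.91%, p = 0.057) overlapped and did not pass the exact permutation test. The summed LTBP level was 125 ± 4.82 FPKM in GFP and 148 ± 7.47 FPKM in OEIRF7, with ranges of 119 to 131 and 139 to 155 (exact permutation p = 0.029).

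**Figure D3:**
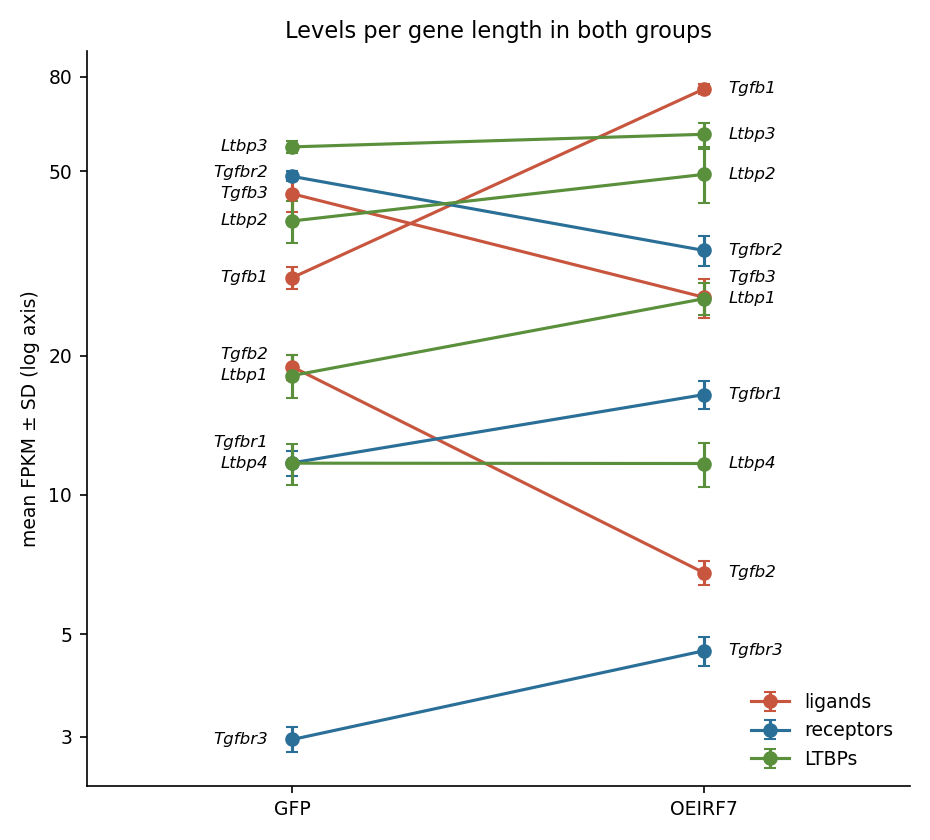
Lines join the mean FPKM of each gene in GFP and in OEIRF7 on a log axis, with the SD over 4 libraries as bars, coloured by family. Tgfb1 goes from 29.5 to 75.3 FPKM and is the highest gene in OEIRF7, Tgfb2 drops from 18.9 to 6.79 FPKM, and Tgfbr3 is the lowest gene in both groups.

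Set in order of FPKM, Tgfb1 was 5th of the 10 genes in GFP and 1st in OEIRF7, and Tgfb2 was 6th in GFP and 9th in OEIRF7. The GFP order ran Ltbp3, Tgfbr2, Tgfb3, Ltbp2, Tgfb1, Tgfb2, Ltbp1, Tgfbr1, Ltbp4 and Tgfbr3. The libraries of neighbours in that order overlapped for Tgfbr2 and Tgfb3, for Tgfb3 and Ltbp2, for Tgfb2 and Ltbp1, and for Tgfbr1 and Ltbp4, so these pairs cannot be ranked. In OEIRF7 the order was Tgfb1, Ltbp3, Ltbp2, Tgfbr2, Tgfb3, Ltbp1, Tgfbr1, Ltbp4, Tgfb2 and Tgfbr3, and only Tgfb3 and Ltbp1 overlapped. Ltbp3 and Ltbp2 were barely separated there, at 57.22 FPKM or more and 57.17 FPKM or less. Tgfb1 was thus the most abundant of the 10 RNAs per length in OEIRF7, at 72.7 FPKM or more in each library, against 65.3 FPKM or less for Ltbp3.

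Because 2 genes measured in one library share its depth and scaling, their ratio shows unequal change directly. The 12 ratios of CPM within the 3 families were compared between groups with an exact two-sided permutation test, adjusted over the 12. Of these, 8 passed, each at the smallest possible p of 0.029 (adjusted p = 0.043 for each). In a pair whose genes separated in opposite directions, this p was fixed by the single genes and is no further test. That holds for Tgfb1 with Tgfb2 or Tgfb3, and for Tgfbr2 with Tgfbr1 or Tgfbr3. The adjusted p of the other ratios depends on counting these pairs among the 12. Ratios of other gene pairs were not computed, so no share stands beside these 8. Of single tested genes, 53.8% had groups without overlap. The ratio of Tgfb1 to Tgfb2 changed most, from a log2 value of -0.52 ± 0.126 in GFP to 2.36 ± 0.0562 in OEIRF7, a difference of 2.88 (SE 0.0687) or 7.37-fold. Tgfb1 to Tgfb3 differed by 2.10 (SE 0.110), and Tgfb2 to Tgfb3 by -0.78 (SE 0.0735), so that the falls of Tgfb2 and Tgfb3 were unequal too. Among the receptors, Tgfbr1 to Tgfbr2 differed by 1.04 (SE 0.0787) or 2.06-fold, and Tgfbr2 to Tgfbr3 by -1.19 (SE 0.108). Tgfbr1 to Tgfbr3 differed by -0.145 (SE 0.0833, adjusted p = 0.125 in the exact permutation test), and its groups overlapped. Among the LTBPs, the ratios of Ltbp1 to Ltbp3 (0.365, SE 0.0993), Ltbp1 to Ltbp4 (0.55, SE 0.172) and Ltbp2 to Ltbp4 (0.29, SE 0.0637) passed. The last of these no longer passed on FPKM (0.33, adjusted p = 0.086 in the exact permutation test). The ratios of Ltbp1 to Ltbp2, Ltbp2 to Ltbp3 and Ltbp3 to Ltbp4 overlapped between groups, with differences of 0.27, 0.10 and 0.19. Leaving out OEIRF7 replicate 3 moved these to 0.173, 0.155 and 0.117, and on FPKM the last 2 were 0.241 and 0.0935.

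**Figure D4:**
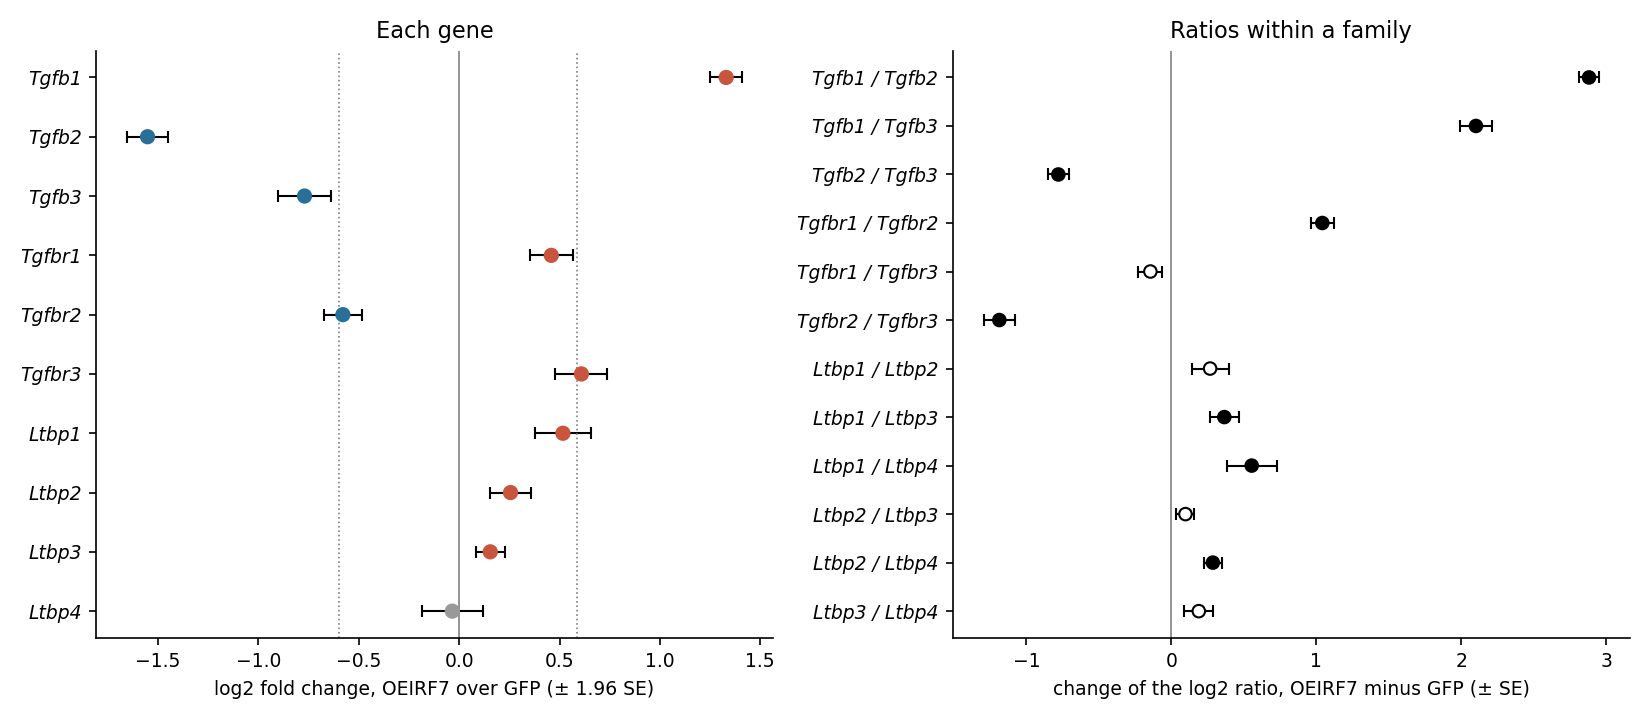
The left panel gives the log2 fold change of each gene, OEIRF7 over GFP, with its approximate 95% interval from a normal distribution (bar). Points are red for higher, blue for lower and grey for not passing, and dotted lines mark the fold limits of 1.5 and 0.66. The right panel gives the change of each within-family log2 ratio with its SE, filled where the adjusted p is under 0.05; the ratio of Tgfb1 to Tgfb2 stands furthest right, at 2.88.

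The other genes of the pathway were examined by lists according to their role. Of the 84 listed genes 82 were tested, and of these 82 genes 29 were higher and 35 lower in OEIRF7. Of all 13533 tested genes, 3924 (29%) were higher and 4045 (29.9%) lower. These 2 shares are the background for the counts of every list below. The median log2 fold change of all tested genes was 0.002, and the median of their sizes, without sign, 0.252. Of 18 genes that process or activate latent TGF-β, 10 were higher and 4 lower (median 0.17). Itgb3, a subunit of the vitronectin receptor, which can bind the latency propeptide, rose from 12.4 ± 0.326 to 39.7 ± 3.79 CPM (log2 fold change 1.68, adjusted p = 1e-10). Plau, the urokinase plasminogen activator, rose from 25.2 to 49.1 CPM (0.96, adjusted p = 6.5e-08). Pcsk6, a convertase of the furin type, fell from 227 to 105 CPM (-1.10, adjusted p = 2.3e-11). Mmp9, a gelatinase, was near the limit of detection in GFP (0.185 ± 0.136 CPM, with as few as 2 counts in a library) and at 11.2 ± 2.19 CPM in OEIRF7, so its fold depends on how low counts are treated. Genes named for their role, after their values were seen, are furin itself (Furin, log2 fold change 0.15, adjusted p = 0.02), thrombospondin 1 (Thbs1, 0.46, adjusted p = 8.1e-07) and further integrin subunits. Of these, Itgb8 fell past the fold limit, from 8.79 to 4.85 CPM (-0.855, adjusted p = 2.1e-05), Itgb5 fell less (-0.25, adjusted p = 3.3e-05), and Itgav was at 0.01 (adjusted p = 0.76). Itgb1 rose slightly, from 1955 to 2234 CPM (0.19, adjusted p = 1.2e-05). Itgb6, at only 0.423 CPM in GFP, was not called (0.49, adjusted p = 0.27).

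All 9 tested genes of the matrix scaffold that holds LTBPs were lower in OEIRF7 (median -0.45), opposite in direction to Ltbp1, Ltbp2 and Ltbp3. Over the alternatives 7 to 10 genes of this list were called lower and 0 higher, the 10 with Fbn2 among those tested. Most of these differences were small, as for Fbn1 (fibrillin 1, -0.20) and Fn1 (fibronectin, -0.16), and for Eln (elastin) the groups overlapped. Past the fold limit were Fbln5, an elastic fibre assembly protein (493 to 238 CPM, log2 fold change -1.05, adjusted p = 1e-10), Adamtsl2, a microfibril protein that binds LTBP1 (67.4 to 24.5 CPM, -1.46, adjusted p = 1.4e-08), and its relative Adamtsl4 (8.57 to 5.43 CPM, -0.66, adjusted p = 0.00016). Fbn2 did not pass the filter on low counts.

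Of 13 co-receptors and extracellular binders of TGF-β, 4 were higher, 4 lower and 5 not called (median -0.05). Vasn (vasorin, a TGF-β trap) rose from 79.0 to 216 CPM (log2 fold change 1.45, adjusted p = 7.8e-11), and Bambi, a decoy receptor without kinase domain, from 4.14 to 12.9 CPM (1.64, adjusted p = 1.8e-08). Fmod (fibromodulin, a collagen-bound proteoglycan) fell from 76.8 to 17.5 CPM (-2.13, adjusted p = 5.4e-10). Eng and Acvrl1, the endoglin and ALK1 pair named here for their role after their values were seen, had log2 fold changes of -0.05 and -0.06 (adjusted p = 0.34 and 0.22).

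Downstream of the receptors, 8 of 9 SMADs and nuclear partners were tested, and 1 was higher and 4 lower, none past the fold limits (median -0.01). On FPKM with limma, 2 were lower. Smad2, Smad3 and Smad4, again named for their role, had log2 fold changes of -0.09, -0.19 and 0.08 (adjusted p = 0.049, 0.013 and 0.12). Of 12 feedback inhibitors 7 were higher and 3 lower (median 0.15). Smurf2, a ubiquitin ligase that targets the type I receptor, rose from 263 to 448 CPM (0.77, adjusted p = 3.2e-10), the repressor Tgif1 rose from 57.7 to 93.5 CPM (0.70, adjusted p = 6.8e-08), and the inhibitory SMAD gene Smad6 fell from 75.4 to 25.2 CPM (-1.58, adjusted p = 7e-10). Smad7, the other inhibitory SMAD gene, named for its role, was 66.3 CPM in GFP and 87.1 CPM in OEIRF7 (0.39, adjusted p = 7.1e-07).

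Of 22 genes commonly induced by TGF-β, 7 were higher and 11 lower (median -0.10), 3 and 5 of them past the fold limits. Of all tested genes, 29% were higher and 29.9% lower, and 9.47% and 9.56% were past these limits. Acta2, the smooth muscle actin of myofibroblasts, fell from 2061 to 581 CPM (log2 fold change -1.83, adjusted p = 1.2e-12), and Cnn1 (calponin) from 4.22 to 1.72 CPM (-1.30, adjusted p = 2e-06). Il11, a cytokine of the interleukin 6 family, rose from 4.03 to 13.3 CPM (1.73, adjusted p = 5.8e-07), and Junb, a subunit of AP-1, from 48.3 to 128 CPM (1.41, adjusted p = 1.2e-12). The list of target genes thus held calls in both directions. In the KEGG TGF-beta signaling pathway as annotated in the deposited table, a set looked up after these values were seen, 28 of 79 tested genes were higher and 29 lower, and without the ligand, receptor and LTBP genes themselves 25 and 26 of 73 (median of the whole set 0.011).

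**Figure D5:**
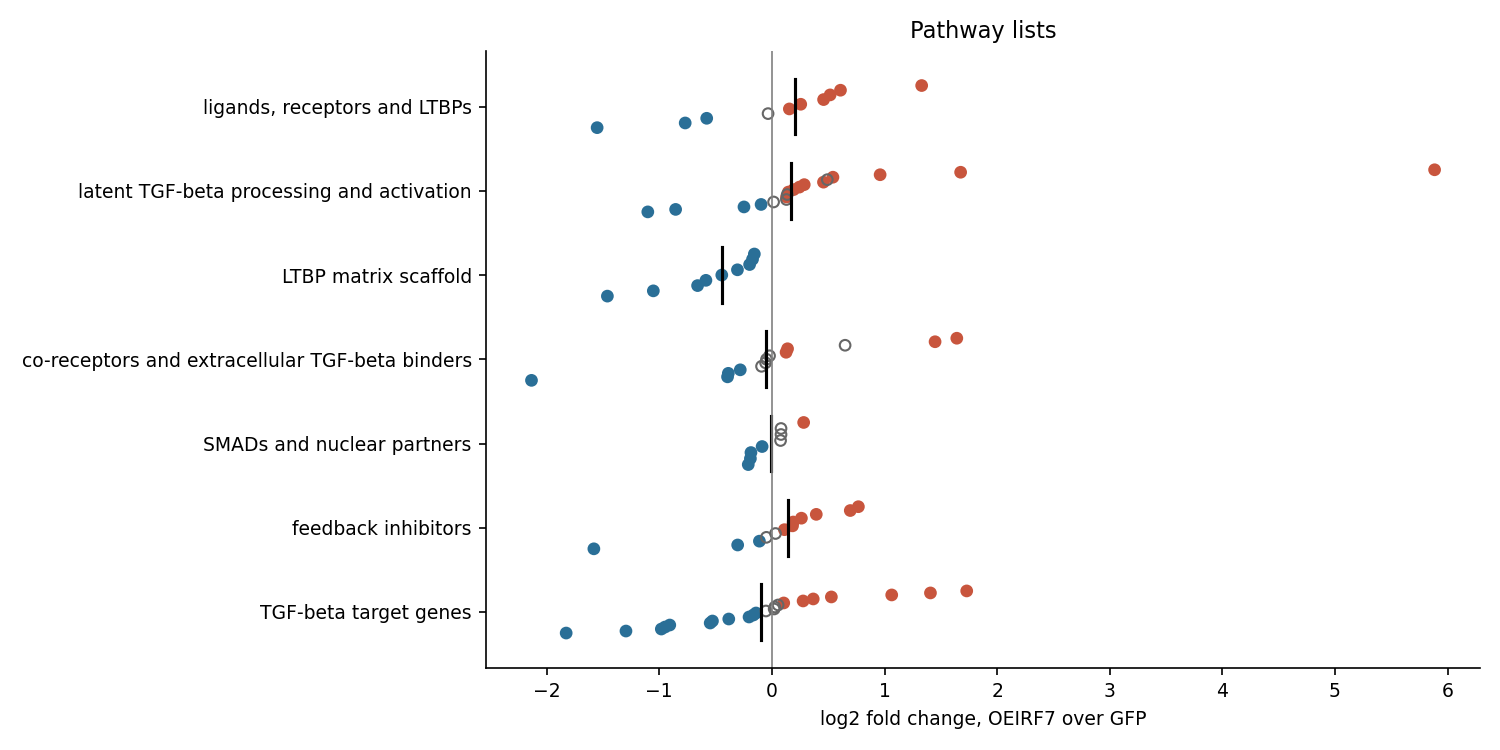
Each point is a tested gene of the list named at the left, placed by its log2 fold change, OEIRF7 over GFP; filled points passed an adjusted p under 0.05 (red higher, blue lower), open points did not, and the black bar is the list median. The 9 scaffold genes all lie left of 0, and the point furthest right is Mmp9, at a fitted value of 5.89 that depends on the treatment of low counts.

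Tgfb2 had the largest change of the 10 genes, and the tested genes with the most similar pattern over the 8 libraries were sought by the root mean square difference of log2 CPM, each centred on its mean. The closest was Trp53inp1, a p53-induced gene of stress and autophagy (difference 0.0182), at 238 to 275 CPM in GFP and 79.2 to 90.3 CPM in OEIRF7 (log2 fold change -1.57). Next were Tcea3, a transcription elongation factor gene (difference 0.0617, 8.10 to 8.65 and 2.43 to 3.10 CPM), and Calhm5, a gene of the calcium homeostasis modulator family (difference 0.0665, 18.8 to 22.0 and 6.16 to 7.56 CPM). The libraries fall into 2 groups by label, so the likeness rests mostly on a similar fold between groups.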

How the data were processed

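RNA-seq of 8 libraries of primary murine cardiac fibroblasts was analysed, 4 labelled GFP and 4 labelled OEIRF7, and groups came from the sample titles. Per the methods, the authors trimmed reads with Trimmomatic, mapped them with HISAT2 to GRCm38 and counted reads per gene with HTSeq-count. They deposited these raw counts, without normalization, and FPKM values from Cufflinks, which the authors normalized for gene length and depth and rounded. Tool versions and the strand setting are not given in the sources used here, and labels and methods name different extraction and library kits. The authors also deposited group means, a log2 ratio, a p-value and an FDR per gene from a comparison of their own, and none of these columns was used. In the table the letters nc of 121 symbols had been replaced by GFP, and these symbols were restored by Ensembl identifier.

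The counts were tested with edgeR 4.0.16 in R 4.3.3 (filterByExpr, TMM, glmQLFit and glmQLFTest, no covariates), with Benjamini-Hochberg adjustment over 13533 genes. CPM of single genes are scaled by TMM, whose factors lay between 0.989 and 1.01, and log2 CPM used a prior count of 2. Summed CPM are scaled to total counts without TMM. Ratios, shares and sums were compared by an exact two-sided permutation test over libraries. Replicates differed by more than sampling noise (chi-square per degree of freedom 2.69 to 8.67), and no pair was merged. As alternatives, counts were tested with DESeq2 1.42.0, with upper-quartile scaling or without scaling beyond library size, with a minimum of 10 counts per library or of 1 count in total, with a replicate block, and without each library in turn. FPKM were tested with limma 3.58.1, with a pseudocount of 1 or 0.1 and a minimum mean of 0.1 FPKM, or 1 and no minimum. Shares were recomputed from counts, and ratios from FPKM or with a prior count of 0.5. The tests were tested on simulated data.

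The 10 genes and the lists were chosen with earlier results of these data known. Named genes are the 10, Irf7, genes overlapping the 10, up to 4 genes per list with the largest change among those with adjusted p under 0.05, fold past 1.5 or 0.66 and a mean of at least 1 CPM in a group, and the 3 genes most like Tgfb2. 1 item that this rule names is not reported here. Other names are marked as chosen after their values were seen.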

Additional observations from a re-analysis of the deposited data

Results flagged for a closer look

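In 56 groups of 4 libraries (2 for each of the 10 genes, Irf7 and the genes named by rule from the pathway lists), the gap of the highest or lowest log2 CPM to its nearest neighbour was divided by the range of the group, and 3 exceeded Dixon's 95% critical value, where chance gives about 1 in 20. For Tgfb2, OEIRF7 replicate 3 was the low library (ratio 0.872), at 28.6 CPM against 31.8 to 32.3 CPM in the other OEIRF7 libraries. For Tgfbr1, OEIRF7 replicate 2 was the high library (ratio 0.861), at 90.4 CPM against 80.9 to 82.2 CPM. For Tgfbr2, GFP replicate 3 was the low library (ratio 0.847), at 235 CPM against 249.7 to 252 CPM. Each of these libraries stayed on its own group's side of the other group, and the calls for the 3 genes held with each library left out.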

How the results depend on the processing

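Of 170 alternative values for the log2 fold changes of the 10 genes, 165 kept their direction and their side of the threshold. Ltbp3 did not pass with limma on log2(FPKM + 1) (0.088), on log2(FPKM + 0.1) (0.089) or without the filter on low FPKM (0.088; adjusted p = 0.11, 0.11 and 0.14), and the cause was not tested. Ltbp4, which did not pass at all, turned sign without GFP replicate 1 (0.03) and without OEIRF7 replicate 3 (0.035), within -0.088 to 0.035 over the libraries left out. The number of the 10 genes called higher was 5 or 6 and called lower 3 under every alternative run. From counts alone the share of Ltbp4 in the LTBP sum differed by -1.60 percentage points with an exact permutation p = 0.029, and on FPKM the log2 ratio of Ltbp2 to Ltbp4 was 0.33 with an exact permutation adjusted p = 0.086; the other 89 alternative shares and 119 alternative ratios kept their direction and side of the threshold or, with a library left out and no test rerun, moved by less than the SD between replicates. Direction and call also held for Irf7 and the genes named by rule from the pathway lists, under every alternative that tested them. Mmp9 was not tested with a minimum of 10 counts per library. For the SMADs and nuclear partners, the number called higher was 2 without scaling beyond library size, and 1 to 2 over the libraries left out, with 2 without GFP replicate 1; the number called lower was 2 in each of the 3 limma fits. Scaling moved the median log2 fold change of all genes by less than 0.1 (0.0288 without scaling, 0.0015 with TMM). Same-numbered libraries of both groups deviated together with correlations of 0.079, 0.095, 0.138 and 0.104, not all above 0.1, and nothing in the labels pairs them. A fit with the replicate block called 4057 genes higher and 4154 lower, and 6 and 3 of the 10 genes, so it moved no call of these; 8 of 8 libraries correlated best with their own number in the other group, a hint from the data and not from the design. With 4 libraries a group, the exact tests cannot go below 0.029.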

Other observations

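GFP replicate 3 and OEIRF7 replicate 3 were the lowest libraries of their groups for 4 of the 10 genes, Tgfb2 (84.7 and 28.6 CPM), Tgfb3 (137 and 82.5 CPM), Tgfbr2 (235 and 149 CPM) and Ltbp4 (53.5 and 50.4 CPM). Replicate 2 was lowest in both groups for Ltbp3, and for 0 of the 10 genes did the same number mark the highest library of both groups. The labels do not say that libraries of one number share a culture, an animal or a day.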
